A study of Mus musculus with 12 samples.

Results

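The genes described here are 8 secreted antagonists of Wnt signalling in mouse muscle: Dkk2, Dkk3, Wif1, Frzb, Sfrp1, Sfrp2, Sfrp4 and Sfrp5. They form a list of names selected on values of these same arrays, the scaled signals in the 4 groups, and their probes were found by the gene names and accessions of the array design among 27597 genes or names. All 8 had a probe that passed the filter on dim signal, which kept 15234 genes. The study measured RNA of whole gastrocnemius, a mixed calf muscle, from adult male CD1 mice on 12 one-colour microarrays. The groups were Smad4KO denervated, WT denervated, Smad4KO control and WT control, with 3 arrays each and a denervation of 14 days. Smad4 is the shared partner of the Smad proteins that carry TGF-beta and BMP signals to the nucleus. The labels give no Cre driver and do not say which cells lost Smad4. Different animals were used for each experiment according to the study's design text.

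Wnt ligands are secreted lipid-modified proteins that bind Frizzled receptors and the co-receptors Lrp5 and Lrp6, and in the canonical branch this stabilises beta-catenin. Secreted antagonists act outside the cell. The Sfrp proteins and Frzb carry a cysteine-rich domain like that of Frizzled and bind Wnt ligands, as does Wif1 through its own domain. Dkk proteins work at the co-receptors, with Kremen proteins as partners. Dkk3 is a divergent family member that is not known to act through Lrp6 in the same way. Denervation removes the motor nerve, after which muscle fibres atrophy.

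Values are log2 of the processed signal minus the 75th percentile of the same array, so 0 is the level of a fairly bright probe. They compare arrays for 1 probe and do not compare genes with each other. Processed signals of the 8 genes reached down to 13.9 intensity units for Sfrp5 and up to 3370 for Sfrp4, and the lowest signal well above background was at most 16.5 units on any array. Because whole muscle was measured, fewer cells of a type and less RNA per cell cannot be told apart. Each difference is given with its standard error (SE) from limma's fit over all 12 arrays. A gene counted as called in that fit at an adjusted p under 0.05. No p is given for the 8 genes, since they were chosen with these values in view.

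The promoter table, from RefSeq on build GRCm38.p6, holds windows for 5 of the 8 genes. The 250 bases before the start of 3 of them are shown: Frzb, because it alone held 2 of the motifs searched, and Sfrp2 and Wif1, because they lay on opposite sides of the genotype comparison in denervated muscle. Capitals mark matches to the E-box CAGCTG, the GC-rich Smad element GGCGCC, the Smad box CAGAC or the TCF/LEF letters CTTTGA, searched on both strands; no matches overlapped.
Frzb: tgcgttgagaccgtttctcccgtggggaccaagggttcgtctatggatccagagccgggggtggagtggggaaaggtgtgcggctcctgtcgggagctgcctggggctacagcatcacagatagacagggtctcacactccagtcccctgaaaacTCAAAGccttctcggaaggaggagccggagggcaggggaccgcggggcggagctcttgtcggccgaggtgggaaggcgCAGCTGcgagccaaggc
Sfrp2: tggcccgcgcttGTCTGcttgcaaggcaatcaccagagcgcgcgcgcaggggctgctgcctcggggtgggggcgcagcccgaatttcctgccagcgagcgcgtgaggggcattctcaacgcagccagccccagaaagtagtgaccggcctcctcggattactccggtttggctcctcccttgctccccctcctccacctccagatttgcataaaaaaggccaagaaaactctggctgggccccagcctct
Wif1: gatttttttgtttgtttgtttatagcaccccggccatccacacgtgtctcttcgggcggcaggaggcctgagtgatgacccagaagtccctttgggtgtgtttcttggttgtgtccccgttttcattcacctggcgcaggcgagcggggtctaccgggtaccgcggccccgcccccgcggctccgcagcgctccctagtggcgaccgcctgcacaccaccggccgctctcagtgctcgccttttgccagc
The Frzb window is chr2:80447397-80447646 on the minus strand, the Sfrp2 window chr3:83766071-83766320 on the plus strand and the Wif1 window chr10:121033754-121034003 on the plus strand. Frzb held an E-box whose first base lay 17 bases before the start and the TCF/LEF letters, on the opposite strand, 95 bases before it. Sfrp2 held a Smad box on the opposite strand 238 bases before the start, and Sfrp5 held one 110 bases before it. Wif1 and Dkk2 held no match, which says only that these letters are not in the window. Over 32851 windows of this length, 13% held the E-box, 9.59% the GC-rich element, 42.2% the Smad box and 13.8% the TCF/LEF letters. The motifs were chosen with the values known, and a match is a description and not a binding site.

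The Smad4 probe, the check of the genotype labels, read 1.77, 2.05 and 1.89 in Smad4KO denervated muscle, against 3.18, 3.49 and 3.28 in WT denervated muscle. It read 2.42, 2.38 and 2.19 in Smad4KO control muscle, against 3.74, 3.59 and 4.02 in WT control muscle. Its signal was lower in the knockout by limma in both conditions (-1.42 ± 0.15 SE, adjusted p = 0.0016 in denervated muscle, and -1.46 ± 0.15 SE, adjusted p = 0.0186 in control muscle). The labels do not say which exons were deleted, so the probe may lie outside them. All 11 fibre markers, including Acta1 and Ckm, were measured, as the labelled tissue requires. Arrays lay on 4 slides, and each slide held more than 1 group, but the groups were not balanced over them. WT denervated replicates 2 and 3 lay on slide 4, the only slide of scan day 2, which held no WT control array. Only slide 1 held both WT denervated and WT control arrays. Denervation in WT can therefore not be fully told apart from slide and scan day.

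**Figure D1:**
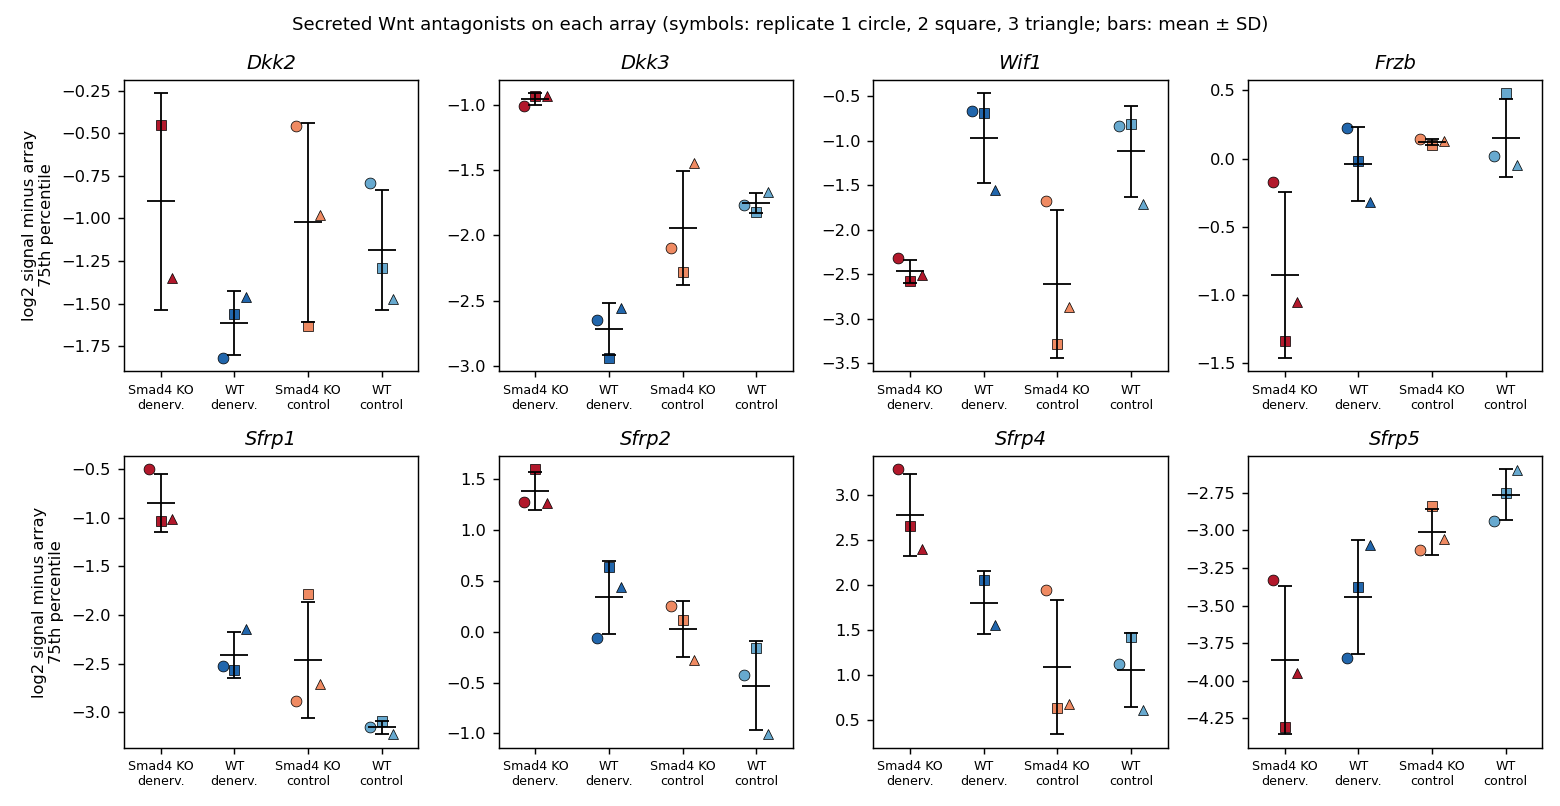
Signal of the 8 secreted Wnt antagonists on each of the 12 arrays, as log2 signal minus the 75th percentile of the array, with the mean and SD of each group as bars. Each panel has its own vertical scale. The Smad4KO denervated arrays are the highest for Dkk3, Sfrp1, Sfrp2 and Sfrp4, and both Smad4KO groups are low for Wif1. A spot marked as an outlier is not drawn for Dkk2 (Smad4KO denervated) and Sfrp4 (WT denervated).

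Dkk3 differed in opposite directions after denervation in the 2 genotypes. The probe, at chr7:111908495-111908554 on the minus strand of build mm8, read -1.01, -0.93 and -0.93 in Smad4KO denervated muscle and -2.10, -2.28 and -1.45 in Smad4KO control muscle. In WT it read -2.65, -2.94 and -2.56 in denervated muscle and -1.77, -1.82 and -1.67 in control muscle. In the knockout every denervated array lay above every control array, and in WT every denervated array lay below. The difference was 0.98 ± 0.20 (SE) in Smad4KO and -0.96 ± 0.20 in WT on the log2 scale. In denervated muscle the knockout was higher by 1.76 ± 0.20, or 3.38-fold, and the groups did not overlap. In control muscle the difference was -0.19 ± 0.20 and the groups overlapped. The denervation response was thus 1.95 ± 0.28 higher in Smad4KO than in WT. On single slides the knockout exceeded WT in denervated muscle by 1.64 and 1.81. Dkk3 was dim, between 28.4 and 191 intensity units, and another background correction, normexp, gave 0.55 for the same difference and -0.11 for denervation in WT.

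Dkk2, which acts at the Wnt co-receptors, scattered widely within both knockout groups. It read -0.45 and -1.35 on the 2 usable Smad4KO denervated arrays, against -1.82, -1.56 and -1.46 in WT denervated muscle. In control muscle it read -0.46, -1.63 and -0.98 in Smad4KO, against -0.79, -1.29 and -1.47 in WT. The usable knockout arrays lay just above WT in denervated muscle, and the control groups overlapped. Smad4KO minus WT was 0.72 ± 0.36 in denervated muscle and 0.16 ± 0.32 in control muscle. Denervated minus control was 0.13 ± 0.36 in Smad4KO and -0.43 ± 0.32 in WT, and the WT value was -1.04 with the slide as a block. The Smad4KO value was 1.06 with the marked spot kept, and between -0.33 and 0.58 when 1 array was left out. The third spot had been marked as an outlier by the scanner software, so that the fit used 2 arrays. That spot read 1.89, and keeping it gave 1.64 in denervated muscle. Without Smad4KO denervated replicate 2 the difference was 0.26.

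Among the Frizzled-related proteins, Sfrp1, Sfrp2 and Sfrp4 had their highest values in denervated knockout muscle. Sfrp1, which can hold back Wnt signals by binding the ligands, read -0.50, -1.03 and -1.01 in Smad4KO denervated muscle, against -2.52, -2.57 and -2.14 in WT denervated muscle. In control muscle it read -2.89, -1.78 and -2.71 in Smad4KO, against -3.15, -3.09 and -3.23 in WT. All Smad4KO denervated arrays lay above all others, and in control muscle the knockout arrays lay just above the WT arrays. Denervated minus control was 1.62 ± 0.27 in Smad4KO, or 3.06-fold, and 0.74 ± 0.27 in WT. Smad4KO minus WT was 1.57 ± 0.27 in denervated muscle and 0.69 ± 0.27 in control muscle. The control value rests partly on Smad4KO control replicate 2, without which it was 0.35. The probe is at chr8:24913185-24913244 on the plus strand of mm8. Another Sfrp1 probe was well above background on 1 array and was not kept. Normexp gave 0.58 for the genotype difference in denervated muscle.

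Sfrp2, a close relative of Sfrp1, followed the same order of groups with overlap between the middle groups. It read 1.28, 1.60 and 1.27 in Smad4KO denervated muscle, against -0.06, 0.64 and 0.44 in WT denervated muscle. In control muscle it read 0.25, 0.12 and -0.28 in Smad4KO, against -0.42, -0.16 and -1.01 in WT. The Smad4KO denervated arrays stood apart from all others, while the control groups overlapped. Denervated minus control was 1.35 ± 0.25 in Smad4KO and 0.87 ± 0.25 in WT. Smad4KO minus WT was 1.05 ± 0.25, or 2.06-fold, in denervated muscle. In control muscle it was 0.56 ± 0.25, and 0.32 without WT control replicate 3. The difference in denervated muscle was 1.34 on 1 slide and 1.06 on the other.

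Sfrp4, from the same subgroup as Frzb, read 3.28, 2.65 and 2.39 in Smad4KO denervated muscle, against 2.05 and 1.55 on the 2 usable WT denervated arrays. In control muscle it read 1.94, 0.63 and 0.67 in Smad4KO, against 1.12, 1.42 and 0.61 in WT. Smad4KO denervated arrays lay above their controls, and the control groups overlapped. Denervated minus control was 1.69 ± 0.38 in Smad4KO, or 3.23-fold, and 0.75 ± 0.42 in WT. The WT value was 0.50 without WT denervated replicate 2, 0.20 with the scan day as a block and 1.20 with the outlier spot kept. Smad4KO minus WT was 0.97 ± 0.42 in denervated muscle, where the fit used 2 WT arrays. The spot left out as an outlier read 3.14, within the knockout range, and keeping it gave 0.52. In control muscle the difference was 0.03 ± 0.38.

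Fibroblast and fibro-adipogenic progenitor markers were compared beside these genes, since Sfrp genes are commonly expressed in such cells. Over all genes tested, 23.7% were higher and 23.2% lower after denervation in Smad4KO, and 18.7% higher and 20.6% lower in WT. Of the 12 fibroblast and progenitor markers, all measured, 0 were higher and 1 was lower in Smad4KO. In WT 0 were higher and 2 lower. Their summed signal, relative to the array's 75th percentile, was 324 to 397 in Smad4KO denervated muscle and 287 to 364 in WT denervated muscle. It was 385 to 550 in Smad4KO control muscle and 394 to 417 in WT control muscle. Of 10 macrophage markers, all measured, 5 were higher after denervation in Smad4KO and 1 in WT, and 0 were lower. Their sums were 54 to 79.8 in Smad4KO denervated muscle and 48.2 to 57.4 in WT denervated muscle, and 26.8 to 62.5 in Smad4KO control muscle and 32 to 48.6 in WT control muscle. Each marker of both lists was well above background on some array. The part of macrophage RNA in the Sfrp values was not tested.

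Frzb, which binds Wnt ligands and is also called Sfrp3, was lower after denervation in the knockout. It read -0.17, -1.34 and -1.05 in Smad4KO denervated muscle and 0.14, 0.10 and 0.13 in Smad4KO control muscle. In WT it read 0.22, -0.02 and -0.32 in denervated muscle and 0.02, 0.48 and -0.05 in control muscle. The 3 knockout control arrays were nearly equal, and every denervated knockout array lay below them, replicate 1 only narrowly. Denervated minus control was -0.98 ± 0.27 in Smad4KO and -0.19 ± 0.27 in WT. Smad4KO minus WT was -0.81 ± 0.27 in denervated muscle, where the groups overlapped, and -0.03 ± 0.27 in control muscle. Within slides the denervated difference between genotypes was -0.39 and -1.17. Beside 23.2% of all genes lower after denervation in Smad4KO and 20.6% in WT, 8 and 2 of 11 muscle fibre markers were lower. Their sums were 1958 to 2726 in Smad4KO denervated muscle, against 3846 to 4111 in Smad4KO control muscle, and 2377 to 3480 in WT denervated muscle, against 2824 to 3792 in WT control muscle. Their part in the Frzb difference was not tested.

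Sfrp5, a close relative of Sfrp1 and Sfrp2, had the dimmest probe of the 8 genes. It read -3.33, -4.31 and -3.95 in Smad4KO denervated muscle and -3.13, -2.84 and -3.06 in Smad4KO control muscle. In WT it read -3.85, -3.38 and -3.10 in denervated muscle and -2.94, -2.75 and -2.60 in control muscle. In both genotypes the denervated arrays lay below the control arrays, by -0.85 ± 0.25 in Smad4KO and -0.68 ± 0.25 in WT. Normexp gave 0.05 in Smad4KO and 0.12 in WT, so the direction changed with the background correction. Genotype groups overlapped in both conditions, with -0.42 ± 0.25 in denervated and -0.25 ± 0.25 in control muscle. In denervated muscle the difference was 0.52 on 1 slide and -1.07 on another. It was -0.68 without Smad4KO denervated replicate 1, -0.20 without Smad4KO denervated replicate 2 and -0.25 without WT denervated replicate 3.

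Wif1, which binds Wnt ligands outside the cell, was the gene of the 8 that was lower in the knockout with little difference after denervation. It read -2.32, -2.57 and -2.51 in Smad4KO denervated muscle, against -0.66, -0.69 and -1.55 in WT denervated muscle. In control muscle it read -1.68, -3.28 and -2.87 in Smad4KO, against -0.83, -0.81 and -1.71 in WT. Denervated arrays of the genotypes did not overlap, and in control muscle Smad4KO replicate 1 lay just above WT replicate 3. Smad4KO minus WT was -1.50 ± 0.40 in both conditions, a size of 2.83-fold in denervated muscle. The difference was -1.67 and -1.45 within slides in denervated muscle and -2.47 and -1.16 in control muscle. Denervated minus control was 0.14 ± 0.40 in Smad4KO and 0.15 ± 0.40 in WT. The probe, at chr10:120503083-120503142 on the plus strand of mm8, was not well above background on Smad4KO control replicate 2. Normexp gave -0.69 in denervated muscle and -0.56 in control muscle.

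The summed signal of 8 tendon cell markers was lower in the knockout, as was Wif1. That sum, relative to the array's 75th percentile, was 75 to 86.4 in Smad4KO denervated muscle, against 101 to 126 in WT denervated muscle. It was 20.3 to 26.1 in Smad4KO control muscle, against 35.4 to 40.6 in WT control muscle. No groups of the same condition overlapped, whereas after denervation the sums were higher in both genotypes, unlike Wif1. All 8 markers were measured, and each was well above background on some array. Between genotypes 1 was called in denervated muscle and 0 in control muscle, against 2.19% and 0.00656% of all genes. The called marker was Chad, a cartilage and tendon matrix protein, with -1.42 ± 0.29 (adjusted p = 0.0306, limma). The single markers were not uniform: Smad4KO minus WT was below 0 for 6 of 8 in denervated muscle, where Tnc was at 0.51 ± 0.39 and Thbs4 at 0.40 ± 0.14, and Tnmd and Mkx at -0.11 each. For control muscle it was below 0 for 8 of 8, with Scx at -0.01 ± 0.30 and Tnmd at -1.46 ± 0.19. After denervation 6 markers were higher and 1 lower in Smad4KO, and 3 were higher and 0 lower in WT. Over all genes, the shares were 23.7% higher and 23.2% lower in Smad4KO, and 18.7% higher and 20.6% lower in WT. Scx rose most, by 3.07 ± 0.30 in Smad4KO and 4.16 ± 0.30 in WT, ahead of Tnc at 2.07 and 1.43. In WT, Tnmd, Fmod and Mkx lay below 0 after denervation, at -0.11, -0.40 and -0.03. Between genotypes in denervated muscle Scx was at -1.10 ± 0.30. A linear sum can follow a single marker, and the part of Scx in the sums was not tested. The part of tendon tissue in the Wif1 difference was not tested.

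**Figure D2:**
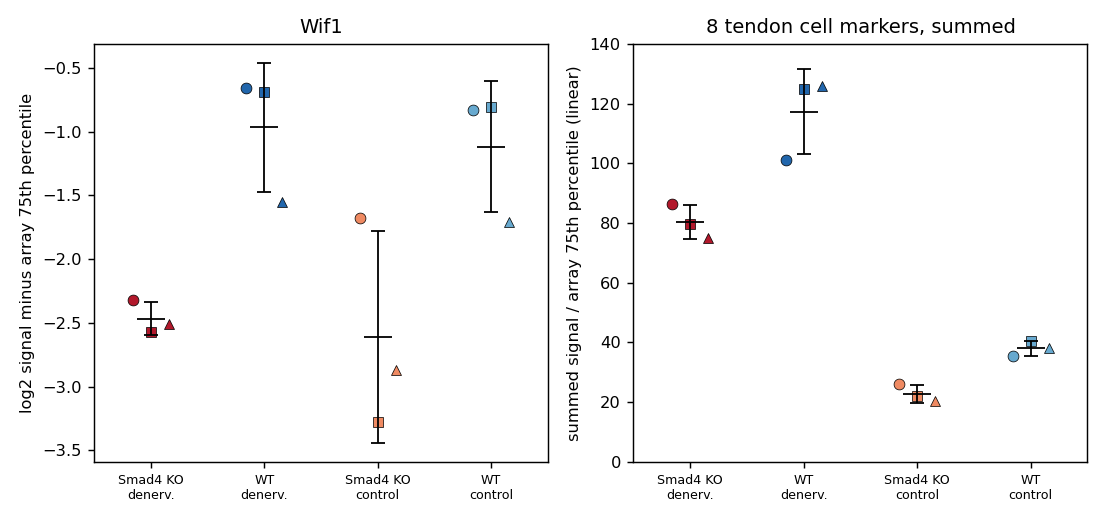
Left, Wif1 on each array on the log2 scale, after subtraction of the 75th percentile; right, the summed linear signal of 8 tendon cell markers divided by that percentile, with group means and SD as bars. The means of both are lower in Smad4KO than in WT muscle in each condition, with sums of 75 to 86.4 against 101 to 126 after denervation, while the sums but not Wif1 differ widely between denervated and control muscle.

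Called genes were counted for the 8 members beside all genes tested. After denervation in Smad4KO, 4 of 8 were called higher (Dkk3, Sfrp1, Sfrp2 and Sfrp4) and 2 lower (Frzb and Sfrp5), where 23.7% of all genes were higher and 23.2% lower. The 2 calls lower were 0 without Smad4KO denervated replicate 2 and under normexp, and 1 without Smad4KO control replicate 2 or with the slide as a fixed block. In WT, 2 were called higher (Sfrp1 and Sfrp2) and 1 lower (Dkk3), where 18.7% of all genes were higher and 20.6% lower. These WT calls were 0 higher and 1 lower without WT denervated replicate 2 or WT control replicate 3, and 0 under normexp. In denervated muscle, 2 were higher in Smad4KO than in WT (Dkk3 and Sfrp1) and 0 lower, where 0.958% of all genes were higher and 1.23% lower. These 2 calls were 1 without WT denervated replicate 2 and 0 under normexp. With arrays scaled to their median, the calls of that comparison were 117 genes higher and 246 lower, and under normexp 17 higher and 8 lower, against 146 and 187 as reported here. In control muscle no member was called by limma, 3 had an unadjusted p under 0.05, and 0.00656% of all genes were called, which is Smad4 itself, although 616 genes had an unadjusted p under 0.05. For the difference between the responses to denervation, Dkk3 was called and 0.184% of all genes were. No member was called there with slide or scan day as a fixed block, with the replicate block within genotype, under normexp or without a filter. The Dkk3 call was also lost when any of 8 of the 12 arrays was left out: WT control replicate 1, 2 or 3, WT denervated replicate 2, Smad4KO control replicate 1 or 2, or Smad4KO denervated replicate 2 or 3. The members' median difference was 0.56 for denervation in Smad4KO and -0.02 in WT, against 0.00 and -0.02 over all genes. It was 0.84 for genotype in denervated muscle and 0.00 in control muscle, against -0.01 over all genes in each. Since the members were chosen with these values in view, nothing is read from these counts. Comparisons that share a group of arrays, such as denervation in Smad4KO and genotype in denervated muscle, are not independent.

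**Figure D3:**
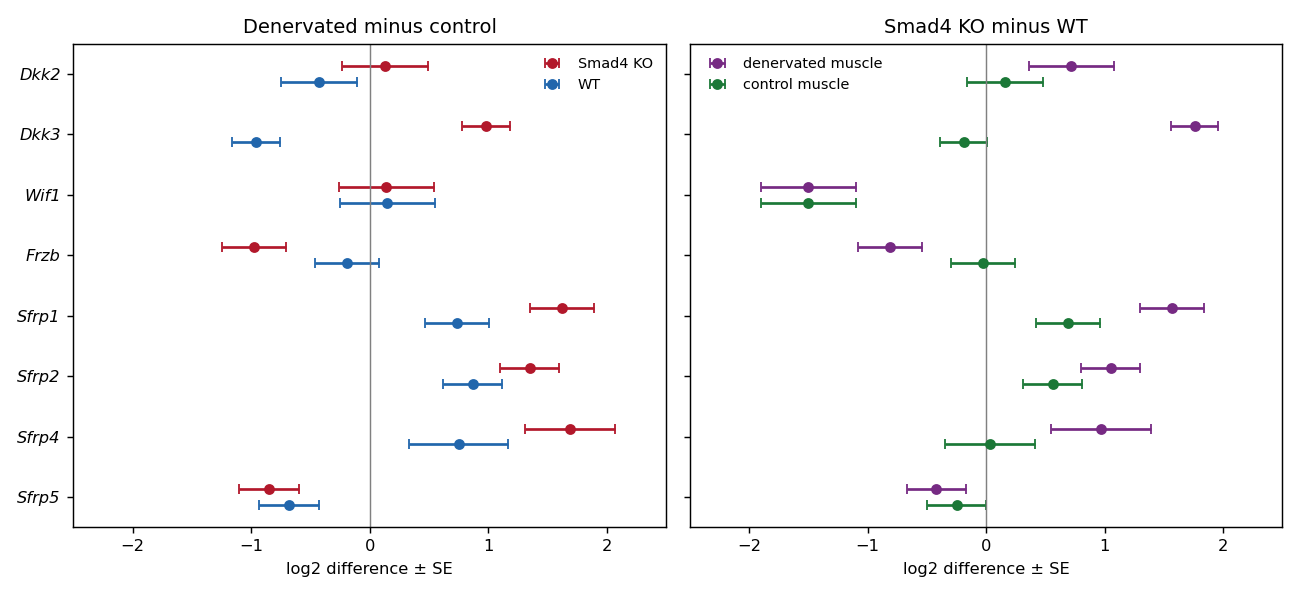
Log2 differences of the 8 genes with their standard errors, for denervated minus control muscle in each genotype (left) and Smad4KO minus WT in each condition (right). Dkk3 lies at 0.98 in Smad4KO and -0.96 in WT on the left, and Wif1 at -1.50 in both conditions on the right.

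**Figure D4:**
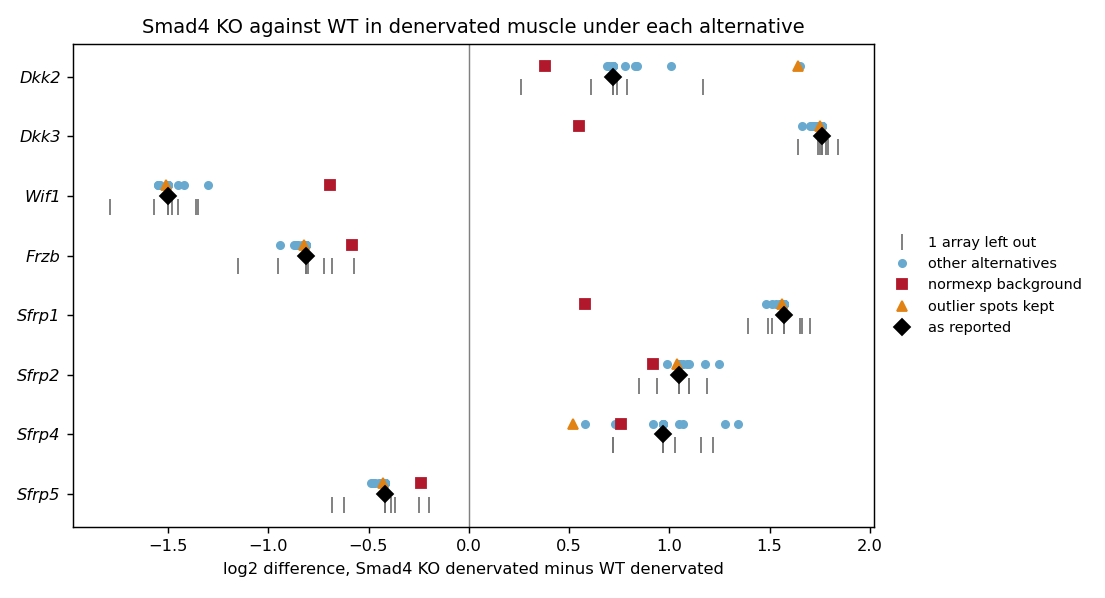
Difference between Smad4KO denervated and WT denervated muscle for each gene, on the log2 scale, as reported (black diamond), with 1 array left out (ticks) and under other processing choices (other symbols). No value changes sign, and the normexp background correction brings Dkk3 to 0.55, Sfrp1 to 0.58 and Wif1 to -0.69.

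The remaining Wnt pathway was read from 5 lists of general knowledge. Over all genes tested, 46.9% were called after denervation in Smad4KO and 39.2% in WT, and the counts below stand beside those shares. Of 21 ligand genes, 10 were measured: 2 were higher and 2 lower after denervation in Smad4KO, and 3 were higher and 1 lower in WT. In Smad4KO the 4 calls were 2 without Smad4KO control replicate 2, 1 without Smad4KO control replicate 3, 1 under normexp and 8 without a filter. In WT they were 2 without WT denervated replicate 2 or with the slide as a block, and 0 under normexp. Wnt9a rose in both genotypes, by 1.47 ± 0.14 in Smad4KO (adjusted p = 1.3e-05, limma) and by 0.48 ± 0.14 in WT (adjusted p = 0.0186). It was also higher in Smad4KO than in WT denervated muscle, by 0.75 ± 0.14 (adjusted p = 0.0194). Its values were 2.44, 2.03 and 2.10 in Smad4KO denervated muscle, against 1.39, 1.47 and 1.45 in WT denervated muscle. The calls in WT and between genotypes were lost under normexp (adjusted p = 0.397 and 0.478, limma). The WT call was also lost with the slide as a fixed block (adjusted p = 0.0885) and without WT denervated replicate 2 or WT control replicate 2 (adjusted p up to 0.0556). The genotype call was also lost without a filter (adjusted p = 0.0538) and without any WT denervated array or Smad4KO denervated replicate 3 (adjusted p up to 0.0647). Porcn, the enzyme that attaches lipid to Wnt ligands, rose by 0.68 ± 0.21 in Smad4KO (adjusted p = 0.0214, limma) and by 0.89 ± 0.21 in WT (adjusted p = 0.00655). Under normexp its calls were lost (adjusted p = 0.163 and 0.088), and in Smad4KO the call was also lost with the replicate block within genotype (adjusted p = 0.0557) and without denervated replicate 1 or 3 or control replicate 1 or 3 (up to 0.0772). The ligand Wnt6 fell by 0.87 in Smad4KO (adjusted p = 0.0138, limma) and by 0.80 in WT (adjusted p = 0.0248). Another Wnt6 probe, well above background on all arrays, gave -0.98 in Smad4KO and -0.39 in WT. Wnt7b fell by 1.49 in Smad4KO (adjusted p = 0.0327, limma). Under normexp the calls of Wnt6 in both genotypes and of Wnt7b were lost too (adjusted p = 0.625, 0.766 and 0.864). The Wnt6 call was lost in Smad4KO without Smad4KO denervated replicate 2 or control replicate 2 or 3 (adjusted p up to 0.0565). In WT it was lost without WT control replicate 1 or 3 or WT denervated replicate 2 (up to 0.0974), with slide (0.169) or scan day (0.113) as a block, and without a filter (0.0543). The Wnt7b call was lost without Smad4KO denervated replicate 1 or control replicate 2 or 3 (adjusted p up to 0.113). The ligand Wnt5b rose in WT by 0.88 ± 0.19 (adjusted p = 0.0047, limma), but its other kept probe gave -0.19, and with the mean of both probes the adjusted p was 0.371. That call was also lost under normexp (0.0983), with the outlier spots kept (0.455) and in the authors' processed values (0.468).

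Of 26 receptor and co-receptor genes, 18 were measured, with 5 higher and 5 lower after denervation in Smad4KO and 4 higher and 5 lower in WT. Under normexp the calls were 6 in Smad4KO and 5 in WT. Kremen1, the receptor that Dkk proteins use together with Lrp6, rose by 2.02 ± 0.16 in Smad4KO (adjusted p = 4.88e-06, limma) and by 2.11 ± 0.16 in WT (adjusted p = 4.07e-06). It read 0.53, 0.42 and 0.34 in Smad4KO denervated muscle and -1.86, -1.48 and -1.43 in Smad4KO control muscle. In WT it read 0.75, 0.43 and 0.38 in denervated muscle and -1.42, -1.77 and -1.58 in control muscle. The denervated arrays thus lay well above the control arrays in both genotypes. Another Kremen1 probe, also bright enough on all arrays, gave 1.17 in Smad4KO and 2.45 in WT. The 2 probes also differed for Smad4KO minus WT in denervated muscle, at -0.09 for the probe used and -1.34 for the other. With the mean of both probes Kremen1 was called there (adjusted p = 0.0163, limma). The Frizzled receptor Fzd9 fell by 2.04 in Smad4KO (adjusted p = 1.33e-05) and by 1.84 in WT (adjusted p = 3.54e-05). Fzd7 fell by 2.15 in Smad4KO (adjusted p = 1.78e-05) and by 1.48 in WT (adjusted p = 0.000341), while a dimmer Fzd7 probe gave -0.79 and -0.82.

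Lgr5, the receptor for R-spondins and itself a beta-catenin target, was the receptor gene called between genotypes in denervated muscle. It read -2.15, -1.71 and -1.14 in Smad4KO denervated muscle, against -4.00, -3.78 and -3.64 in WT denervated muscle. The knockout was higher by 2.14 ± 0.24 (adjusted p = 0.0016, limma), but that call was lost under normexp (adjusted p = 0.999). No control array had Lgr5 well above background. With each control array set at the lowest signal counted as well above background, the probe was at least about 5.12-fold higher in denervated Smad4KO muscle. The same step gave at least about 1.39-fold in WT. These bounds are approximate, since a spot brighter than that level can still fail the mark, as Wif1 did on Smad4KO control replicate 2. The limma adjusted p (3.74e-07 in Smad4KO and 2.14e-05 in WT) belongs to the measured values and not to the bounds. Those values were not well above background in control muscle. The gene passed the filter through the denervated groups. Under normexp the adjusted p was 0.058 in Smad4KO and 0.404 in WT. Another Lgr5 probe was too dim to be kept.

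Of 13 other extracellular antagonists, 7 were measured and Trabd2b was not on the array. After denervation in Smad4KO 1 was higher and 1 lower, and in WT 0 were called. These were Tpbg, a membrane protein that can inhibit Wnt signalling, with 1.95 ± 0.54 (adjusted p = 0.0115, limma), and Draxin, a guidance protein and Wnt antagonist, with -0.86 ± 0.31 (adjusted p = 0.0397). Tpbg was well above background on 1 of 3 Smad4KO control arrays and passed the filter through the denervated groups, so the size of its difference is uncertain. Both calls were lost under normexp (adjusted p = 0.23 and 0.357), Tpbg's also without Smad4KO denervated replicate 2 (0.0502), and Draxin's also without any single knockout array (up to 0.0956).

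All 31 intracellular components were measured, and 10 were lower and 3 higher after denervation in Smad4KO, with 5 lower and 3 higher in WT. The 13 calls in Smad4KO were 6, all lower, without Smad4KO control replicate 3, and 2 under normexp. The 8 calls in WT were 5 without WT denervated replicate 1, 4 without WT denervated replicate 3 or WT control replicate 3, 4 without a filter and 2 under normexp. Cby1, which binds beta-catenin and inhibits it, fell by 1.73 in Smad4KO (adjusted p = 1.62e-05, limma) and by 1.34 in WT (adjusted p = 0.000134). Csnk1e, a casein kinase of the pathway, fell by 1.18 in Smad4KO (adjusted p = 0.00126), and another probe, dim after denervation, gave -2.04. Ctnnbip1, another beta-catenin inhibitor, fell by 0.79 in WT (adjusted p = 0.00143) and by 0.49 in Smad4KO (adjusted p = 0.0171). The Smad4KO call was lost under normexp (0.254) and without Smad4KO denervated replicate 1 or Smad4KO control replicate 2 (up to 0.0635). Pygo1, a co-activator of beta-catenin, fell by 2.16 in Smad4KO (adjusted p = 0.00034) and by 1.60 in WT (adjusted p = 0.00309), and both calls were lost under normexp (0.529 and 0.817). Gsk3b, the kinase that marks beta-catenin for destruction, fell by 0.90 in Smad4KO (adjusted p = 0.00457), but not with the mean of its 2 kept probes (0.105) or under normexp (0.289). Dvl2, which relays the signal from Frizzled receptors, rose by 0.77 in WT (adjusted p = 0.0155, limma). That call was lost under normexp (0.295), with the slide as a fixed block (0.0679) and without WT denervated replicate 3 or WT control replicate 3 (up to 0.0632).

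Of 20 beta-catenin target genes, 16 were measured, with 6 higher and 1 lower after denervation in Smad4KO and 4 higher and 1 lower in WT. Under normexp these counts were 3 in Smad4KO and 2 in WT, and in WT 3 among probes well above background on all 12 arrays. Fst, which encodes the activin and myostatin antagonist follistatin, rose by 2.68 ± 0.37 in Smad4KO (adjusted p = 0.000178, limma) and by 2.60 ± 0.37 in WT (adjusted p = 0.000295). The receptor gene Tnfrsf19 fell by 1.52 in Smad4KO (adjusted p = 0.000785) and by 1.17 in WT (adjusted p = 0.00486). Tcf7, a partner of beta-catenin on DNA, was well above background on no control array. By the same approximate bounds as for Lgr5, its probe was at least about 1.97-fold higher in Smad4KO and 1.83-fold higher in WT. The limma adjusted p (0.000598 in Smad4KO and 0.000781 in WT) belongs to the measured values and not to the bounds. Tcf7 passed the filter through the denervated groups. Another kept Tcf7 probe gave less, 0.85 in Smad4KO and 0.70 in WT on the log2 scale. That probe was well above background on no control array and on 1 of 3 WT denervated arrays. Under normexp the Tcf7 calls were lost (adjusted p = 0.56 and 0.373). The targets' median difference was 0.51 in Smad4KO and 0.32 in WT, against 0.00 and -0.02 over all genes. In denervated muscle 1 ligand, Wnt9a, and 1 receptor and target, Lgr5, were called between genotypes, and 0 genes of the 5 lists were called in control muscle or for the difference between responses.

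**Figure D5:**
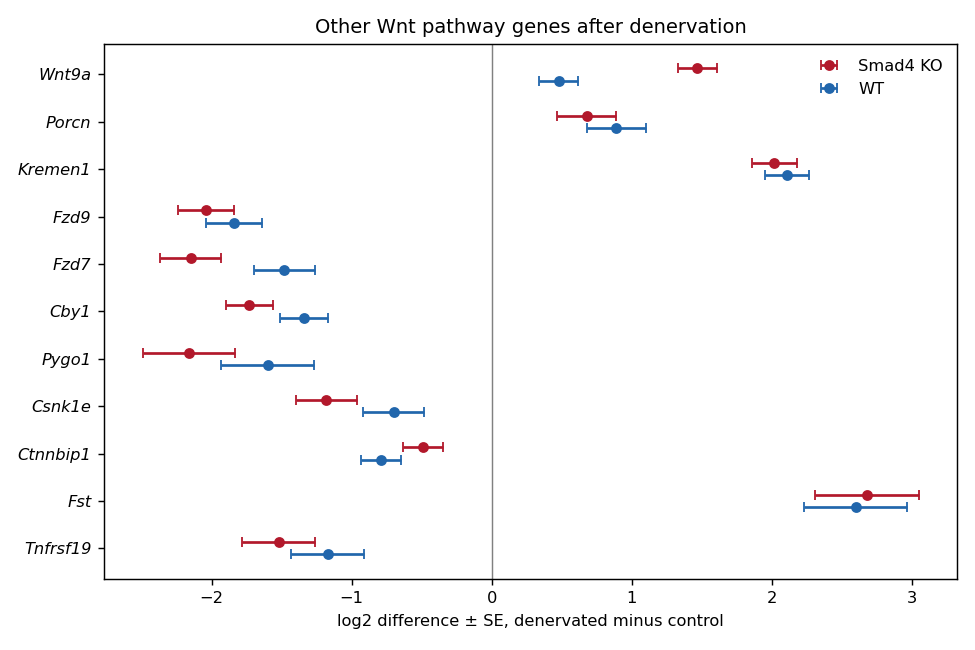
Log2 differences with standard errors for denervated minus control muscle in Smad4KO (red) and WT (blue) for 11 genes of the pathway lists. Kremen1 and Fst lie above 2 in both genotypes, and Fzd9, Fzd7, Cby1 and Pygo1 lie below -1 in both.

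The genes whose pattern over the arrays was most like that of each member were found by Pearson's r over 11 or 12 arrays, which share groups and scaling, so r is a description. For Dkk3 they were Stmn1, a tubulin-binding protein (r = 0.94), and Sncg (r = 0.91), whose denervation differences were 1.03 and 1.01 in Smad4KO and -0.66 and -1.31 in WT. For Sfrp1 they were Fancd2, a DNA repair gene (r = 0.95), and Nfkbie (r = 0.93). For Sfrp2 they were Ston2 (r = 0.95) and Cbr2 (r = 0.94), and for Sfrp4 the complement gene Cfb and the matrix gene Thbs2 (r = 0.97 each, over 11 arrays). Frzb was most like Hspb6, a small heat shock protein of muscle (r = 0.95), and Ccdc189 (r = 0.94). Wif1 was most like 2 matrix genes of cartilage and tendon, Cilp2 (r = 0.92) and Chad (r = 0.83). Dkk2 was most like Nrp2 (r = 0.87) and Aoc3 (r = 0.84) over 11 arrays, and Sfrp5 like Cpeb4 (r = 0.97) and Rfx2 (r = 0.94).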

How the data were processed

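Agilent arrays of a single colour carried Cy3-labelled RNA from each of 12 samples. Per the file headers, the deposited processed signal is an intensity per spot, background-subtracted and detrended, and not normalized across arrays. Feature Extraction is given as version 10.7.3.1 in the headers but as 10.5.1.1 in the submitters' processing notes. Spots marked as outliers were set missing, the intensity was put on a log2 scale from the deposited values, and each array's 75th percentile (226 to 383 units) was subtracted. Between 50.9% and 57.0% of spots per array were well above background, and 0 were saturated. Probes were kept when well above background on all 3 arrays of a group (22535 probes), and the brightest kept probe stood for its gene (15234 genes). The series' table of processed values, deposited as intensity by the authors with its method not given in the sources used here, served as an alternative. Probe positions are on mm8 as in the files, for which no annotation was used here.

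The fit used limma 3.58.1 (R 4.3.3) with lmFit followed by eBayes (two-sided p, Benjamini-Hochberg adjustment within each comparison, threshold 0.05) on 4 group means without a covariate, with 8 residual and 3.15 prior degrees of freedom. The fit was tested on simulated data. The number of arrays limits the precision.

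Replicate numbers in the titles were checked for pairing. Same-numbered WT denervated and WT control arrays deviated together, with correlations of 0.107 to 0.304, against 0.0152 to 0.175 in Smad4KO. The WT pair at 0.304 and the Smad4KO pair at 0.175 also shared a slide. Denervated and control arrays with different numbers gave -0.251 to 0.016 in WT and -0.241 to 0.108 in Smad4KO. Same-numbered denervated arrays of the 2 genotypes, which are different animals, gave 0.00706 to 0.299. The pairs at 0.299 and 0.203 among them shared a slide. WT control with Smad4KO denervated arrays gave -0.208 to 0.139. The correlations thus do not settle whether arrays were paired. The members and gene lists were chosen with earlier results of these data known. The rule for named genes takes Smad4, all members, up to 4 called genes per pathway list and comparison with the smallest adjusted p, and the 2 genes most correlated with each member. Marker lists of Schwann, endothelial, mural, adipocyte and satellite cells were measured too. Schwann cell markers were lower after denervation for 6 of 9 in Smad4KO and 5 of 9 in WT, endothelial markers for 6 and 5 of 8, and mural markers for 4 and 5 of 8. Adipocyte markers (6 of 7 measured) had 0 calls, and 1 of 6 satellite cell markers was higher in each genotype. Over all genes, 23.2% were lower after denervation in Smad4KO and 20.6% in WT, while 23.7% and 18.7% were higher. Alternatives covered scaling, background, filters, blocks, single arrays left out and, chosen after seeing the data, outlier spots kept and a replicate block within genotype.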

Additional observations from a re-analysis of the deposited data

Results flagged for a closer look

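The denervation response of Dkk3 stood out because its direction differed between the genotypes. Every Smad4KO denervated array lay above every Smad4KO control array, and every WT denervated array lay below every WT control array. The response in Smad4KO minus that in WT was 1.95 on the log2 scale. No p is given, since the gene was chosen with these values in view. The fit over all genes called Dkk3 for this difference, and nothing is read from that call. It was lost when any of 8 of the 12 arrays was left out. No call remained with slide or scan day as a fixed block, with the replicate block within genotype, under normexp or without a filter. The difference between the responses was 0.73 under normexp, with a response of 0.62 in Smad4KO and -0.11 in WT. Denervation in WT can also not be fully told apart from slide and scan day.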

How the results depend on the processing

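The values of the 8 genes were recomputed in 1019 combinations of comparison and alternative, of which 985 kept their sign. The other 34, of which 3 were at 0.00, had a size under 0.2 as reported in 32, and the remaining 2 were Sfrp5 after denervation under normexp, at 0.05 in Smad4KO, where it had been called, and 0.12 in WT. Of 873 values for named pathway genes, 810 kept their side of the threshold and 63 lost the call, and 0 reversed. The cause of these shifts was not tested. For counts of called genes, in the order denervation in Smad4KO, denervation in WT, genotype in denervated muscle, genotype in control muscle and interaction, normexp gave 2720, 1909, 25, 0 and 0, against 7146, 5979, 333, 1 and 28 as reported. Under normexp the lists held 12, 9 and 0 calls in the first 3 comparisons, and 2, 0, 0 and 0 members were called in the first 3 and the interaction. No filter gave 203 calls for genotype in denervated muscle, 0 in control muscle and 5 for the interaction, with 1 pathway gene and, for the interaction, 0 members. Probes well above background on all 12 arrays gave 2 calls in control muscle and 12 for the interaction, with 1 pathway gene in denervated muscle. The mean of a gene's probes gave 4 in control muscle and 4 pathway genes in denervated muscle. Quantile normalization gave 5 in control muscle and 2 pathway genes for the interaction, array median scaling 5 in control muscle, a variance trend 2, and the authors' processed values gave 4, with 2 pathway genes for the interaction. For the interaction, 15 genes were higher and 13 lower as reported, and 10 and 14 with array median scaling.

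With slide as a fixed block, control muscle gave 0 calls and the interaction 4, with 0 members; with slide as a random block the counts were 2 in control muscle and 1 pathway gene for the interaction. With scan day, control muscle gave 2 and the interaction 0 members. The replicate block over all arrays gave 0 calls in control muscle and 1 pathway gene for the interaction. The replicate block within genotype gave 5790 calls for denervation in WT and 7119 in Smad4KO, against 5979 and 7146, and for the interaction 9 calls, with 0 members. It changed no other count of all genes, pathway genes or members by over 1.5 times. With 1 array left out, calls ranged from 151 to 320 for genotype in denervated muscle, 0 to 2 in control muscle and 5 to 51 for the interaction. Pathway genes called ranged from 1 to 4 for genotype in denervated muscle and 0 to 1 for the interaction. Members called ranged from 1 to 4 for denervation in WT, 1 to 3 for genotype in denervated muscle and 0 to 1 for the interaction. The lowest count for genotype in denervated muscle came both without WT denervated replicate 2 and without Smad4KO denervated replicate 2. The lowest for members in WT came both without WT denervated replicate 2 and without WT control replicate 3. Members called after denervation in Smad4KO ranged from 4 to 6. Dim probes limit Sfrp5, Dkk3, Sfrp1 and Wif1, whose lowest signals are 13.9 to 28.4 intensity units, against at most 16.5 for the lowest signal well above background.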
